A study of Mus musculus with 6 samples.

Results

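The heme-regulated eIF2alpha kinase and the integrated stress response were followed at the mRNA level through 10 genes, out of 23896 genes that carried a symbol in the counts. The genes were chosen by name, with earlier results of these data known. They are the kinases Eif2ak1, Eif2ak3 and Eif2ak4 and the phosphatase subunits Ppp1r15a and Ppp1r15b. The others are the transcription factors Atf4, Atf5 and Ddit3 and the targets Trib3 and Asns. Each gene was represented by the RefSeq transcript with the highest mean count over the 6 libraries. All 10 passed the filter on low counts.

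The integrated stress response starts when a kinase adds phosphate to the alpha subunit of eIF2, the factor that brings the initiator tRNA to the ribosome. Translation of most mRNAs then drops, while a few, among them Atf4, are translated more, and ATF4 protein turns on genes of amino acid supply and stress defence until a phosphatase removes the phosphate. In erythroid precursors the kinase HRI, encoded by Eif2ak1, is inhibited by heme and fits globin translation to the heme supply.

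The study followed RNA in MEL cells, a mouse erythroleukemia line that resembles an early erythroblast and matures along the red cell lineage when DMSO is added. Suspension cultures in log-phase growth, in MEM with FBS and antibiotics, received 2% DMSO, and RNA was sampled at 0, 2 and 4 days of treatment. Stranded, poly(A)-selected libraries were made from 2 biological replicates per day, 6 libraries in all. A single leukemia line is the only cell type here, so the values describe that line and not erythroblasts of an animal. The total count over transcripts was 43415610 and 53899476 at day 0, 39258359 and 45896399 at day 2, and 35294930 and 45621291 at day 4. Transcripts NM_009716 and NM_001287180 of Atf4 had totals of 83378 and 83295, and 0 counts were listed as ambiguous. A read may thus count for more than 1 transcript, so these sums can exceed the number of reads. Counts of transcripts called can hold isoforms of the same gene.

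The erythroid label was checked against marker genes on the scale used for each single gene below, counts relative to TMM-scaled library size (CPM). All 10 erythroid markers had counts, with summed levels of 1170 and 1218 CPM at day 0, 4450 and 5276 at day 2 and 17890 and 20080 at day 4, and the alpha globin gene Hba-a1 was the most abundant of them on every day but day 0. Markers of other lineages were low, except those of the megakaryocyte lineage and, at day 0, Thy1. The 5 megakaryocyte markers summed to 269 and 272 CPM at day 0, 222 and 245 at day 2 and 557 and 629.7 at day 4, most of it Itga2b (209 and 227 CPM at day 0, 531 and 606 at day 4). The 6 myeloid markers summed to at most 6.89 CPM in any library (Cd68 was the most abundant), the 5 mast cell and basophil markers to at most 3.81 (Cpa3; Prss34 had no count), and the 5 lymphoid markers to at most 0.172 (Cd79a; Cd2 and Ms4a1 had no count). The 5 fibroblast and stroma markers summed to 52.5 and 45.0 CPM at day 0 and at most 3.54 in the later libraries, with Thy1 as the most abundant (50.2 and 41.8 CPM at day 0) and Dcn without a count. The part of the marker changes in the results on the stress response was not tested.

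Transcripts for the heme-regulated kinase and for both regulatory subunits of the eIF2alpha phosphatase rose over the 4 days in DMSO, and transcripts for Atf4, Ddit3, Trib3 and Asns fell. Eif2ak1 was 2.52-fold higher at day 4 than at day 0, whereas Atf4 was 3.49-fold lower and Trib3 6.83-fold lower. Atf5, a factor of the same pathway, was called higher at day 2 in edgeR but not by DESeq2 (adjusted p 0.203). That call also depended on single libraries, and the day 4 libraries of Atf5 stood far apart. In bulk RNA of this kind, fewer cells of a type and less RNA per cell cannot be told apart.

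The comparison of day 4 with day 0 covers the whole course, and the steps from day 0 to day 2 and from day 2 to day 4 ask when a transcript moved. A change was called at an adjusted p below 0.05 in 1 edgeR fit over all transcripts, and the 3 comparisons share libraries. From day 0 to day 4, 9 of the 10 genes were called, against 71.8% of the 12381 genes tested; 5 were higher, against 35.5%, and 4 lower, against 36.4%. From day 0 to day 2, 8 were called, against 62.5% of all genes, with 5 higher, against 31%, and 3 lower, against 31.5%. From day 2 to day 4, 5 were called, against 30.3%, with 2 higher, against 14%, and 3 lower, against 16.2%. Their medians in log2 were 0.31 over the whole course, 0.25 for the first step and -0.13 for the second, beside -0.017, 0.0093 and -0.0046 over all genes tested. The medians of the 10 genes were not stable: without the first day 4 library that of the whole course was -0.078, with 3 genes higher and 5 lower, and that of the second step ran from -0.31 to 0.047 with a library left out. With total counts the first and second steps had medians of 0.45 and -0.21. With shares of this size among all genes, the counts are no result about the 10 genes as a group, and the values of single genes follow. Without the second day 2 library, fewer of the 10 genes were called for the first step, and fewer of all transcripts. The same held for the second step without the first day 2 library or the second day 4 library.

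Scaling mattered for the balance between rises and falls over all transcripts. Among called transcripts 50.1% were higher at day 4 than at day 0, 50.2% were higher at day 2 than at day 0, and 47.2% were higher at day 4 than at day 2. With total counts in place of TMM factors these shares were 55.8%, 64.5% and 33.2%, and the median log2 fold change of all transcripts shifted to 0.11, 0.22 and -0.087. On that scale 5 of the 10 genes were called higher and 4 lower at day 4 than at day 0, and every called change of the 10 genes kept its direction in each comparison.

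**Figure D1:**
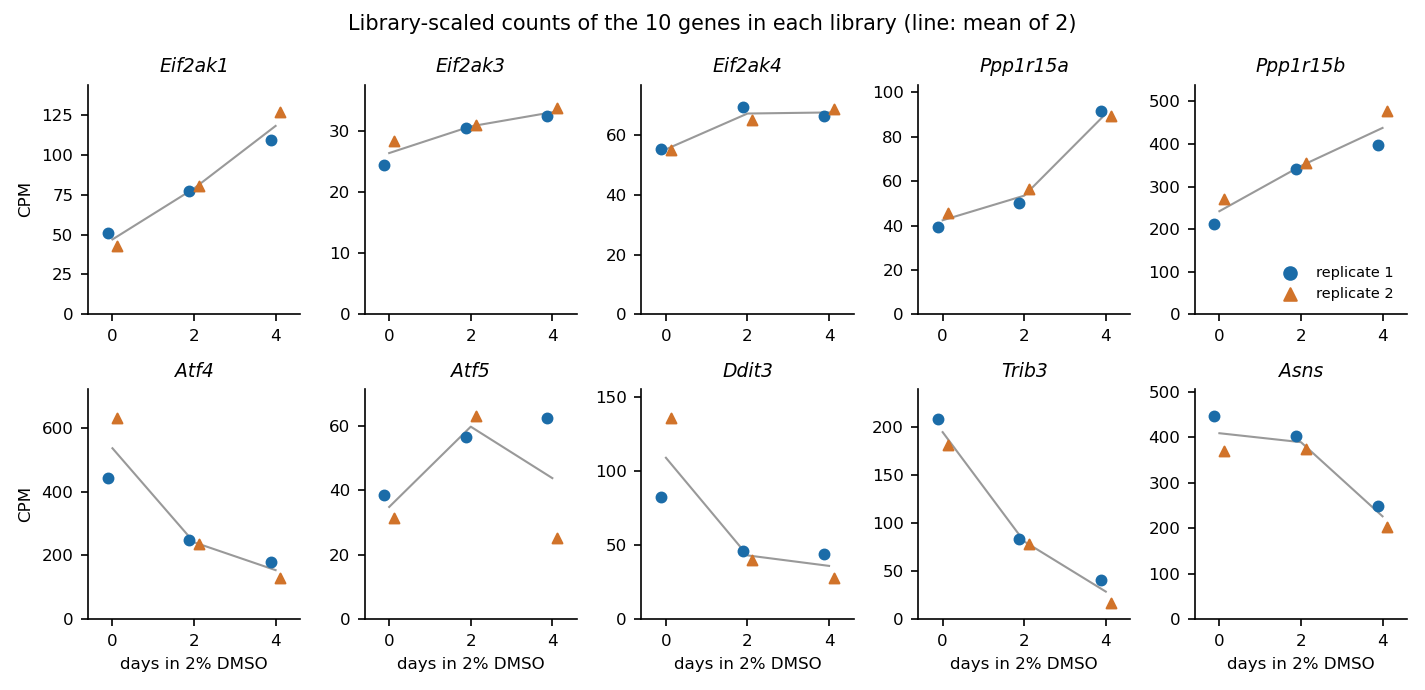
Library-scaled counts (CPM, vertical axis from 0) of the 10 genes by days in 2% DMSO, with a circle for replicate 1, a triangle for replicate 2 and a line through the mean of both. Eif2ak1, Ppp1r15a and Ppp1r15b climb, Atf4, Ddit3 and Trib3 descend, and the day 4 libraries of Atf5 and Trib3 lie apart.

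Among the kinases, Eif2ak1 (NM_013557, chr5:143817792-143902717, plus strand, GRCm38.p6) encodes HRI, which senses heme. Its level was 51.0 and 43.0 CPM at day 0, 77.5 and 80.5 at day 2 and 109.7 and 127 at day 4. Every later day stood above the one before, with no overlap between days. The log2 fold change was 0.75 (SE 0.12, adjusted p 0.000265) for the first step, 0.58 (SE 0.12, adjusted p 0.00453) for the second and 1.33 (SE 0.12, adjusted p 2.37e-06) over the whole course in edgeR. The call for the second step was lost without the first day 2 library (0.55, adjusted p 0.0804) and without the second day 4 library (0.47, adjusted p 0.0667). The gene overlaps Aimp2 by 487 bases and Ankrd61 by 172 bases on the opposite strand, and the strand use of the counting was not given in the sources used here. Aimp2 had a log2 fold change of -0.90 for day 4 against day 0, and Ankrd61 had hardly any counts.

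Eif2ak3 (NM_010121, chr6:70844484-70905241, plus strand) encodes PERK, the kinase that senses misfolded protein in the endoplasmic reticulum. Its level was 24.4 and 28.4 CPM at day 0, 30.5 and 30.9 at day 2 and 32.4 and 33.7 at day 4. The day 4 libraries were above both day 0 libraries by a small margin, and the 3 days did not overlap. The rise over the whole course was 0.33 (SE 0.12, adjusted p 0.0286) in log2, and neither step was called, at 0.22 (adjusted p 0.127) and 0.10 (adjusted p 0.536) in edgeR. The day 4 call was lost without any 1 of 5 libraries: the first day 0 library (0.21), the first day 2 library (0.32), the second day 2 library (0.33), the first day 4 library (0.35) or the second day 4 library (0.29). It was also lost when only the days compared were fitted (adjusted p 0.0572). The first step was called without the second day 0 library, at 0.33, and with total counts, at 0.42, and was 0.11 (adjusted p 0.368) without the first day 0 library. With total counts the second step was 0.021. Gm43292 overlaps it by 485 bases on the other strand.

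Eif2ak4 (NM_013719, chr2:118388583-118475234, plus strand) encodes GCN2, which senses uncharged tRNA. Its level was 55.3 and 55.1 CPM at day 0, 69.2 and 65.2 at day 2 and 66.5 and 68.6 at day 4. Both day 0 libraries were the lowest of the 6, and the day 2 and day 4 libraries overlapped. It was higher than at day 0 by 0.28 (SE 0.10, adjusted p 0.0275) in log2 at day 2 and by 0.29 (SE 0.10, adjusted p 0.0208) at day 4 in edgeR, and the second step was 0.0078 (adjusted p 0.961). The day 2 call was lost without the first (0.24) or second (0.33) day 2 library and without the first (0.29) or second (0.28) day 4 library. It was also lost when only the days compared were fitted (0.27, adjusted p 0.0542), and the value was 0.48 with total counts. The day 4 call was lost without the first (0.31) or second (0.26) day 4 library.

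Eif2ak2 (NM_011163, chr17:78850504-78882572, minus strand), which encodes PKR, the kinase that binds double-stranded RNA, is not one of the 10 genes and was measured beside them. Its level was 35 and 36.9 CPM at day 0, 65.3 and 60.5 at day 2 and 63.3 and 61.2 at day 4. The day 0 libraries were lowest and the day 2 and day 4 libraries overlapped. The log2 fold change was 0.81 (SE 0.10, adjusted p 6.03e-05) for the first step, -0.015 (SE 0.10, adjusted p 0.927) for the second and 0.79 (SE 0.10, adjusted p 3.92e-05) over the whole course in edgeR.

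Levels of different genes can be set side by side only per length, as TPM (counts over transcript length, scaled to the same sum in each library) over 1 transcript per gene. On that scale Eif2ak1 made up 32.8% and 28.2% of the summed TPM of the 4 kinases in the day 0 libraries, 33.7% and 35.8% at day 2 and 42.3% and 45.8% at day 4. Its share was highest in both day 4 libraries, with no overlap between days. The summed TPM of the kinases was 117 ± 4.09 (SD, n = 2) at day 0, 204 ± 4.34 at day 2 and 212 ± 5.80 at day 4. On this scale most of the gain in the sum lay between day 0 and day 2. The step after day 2 depended on the scale. From day 2 to day 4 mean Eif2ak4 went from 67.19 to 67.55 in CPM but from 49.99 to 44.26 in TPM. Mean Eif2ak2 went from 62.92 to 62.27 in CPM but from 56.57 to 49.32 in TPM. The sum was not taken in CPM, where Eif2ak1 went from 77.5 and 80.5 at day 2 to 109.7 and 127 at day 4. Eif2ak4 took 29.7 ± 0.237% of the TPM at day 0, 24.5 ± 0.682% at day 2 and 20.9 ± 0.547% at day 4. Eif2ak3 had the smallest share on each day, 16.4 ± 1.94%, 13.0 ± 0.308% and 11.8 ± 0.233%. Eif2ak2 held 23.4 ± 1.11% at day 0, 27.8 ± 1.08% at day 2 and 23.3 ± 1.68% at day 4. The TPM ratio of Eif2ak1 to Eif2ak4 was 1.11 and 0.942 at day 0, 1.35 and 1.49 at day 2, and 1.99 and 2.23 at day 4. Eif2ak1 and Eif2ak4 were thus about level at day 0, and Eif2ak1 was the higher in all 4 later libraries. These shares are descriptions with no test.

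**Figure D2:**
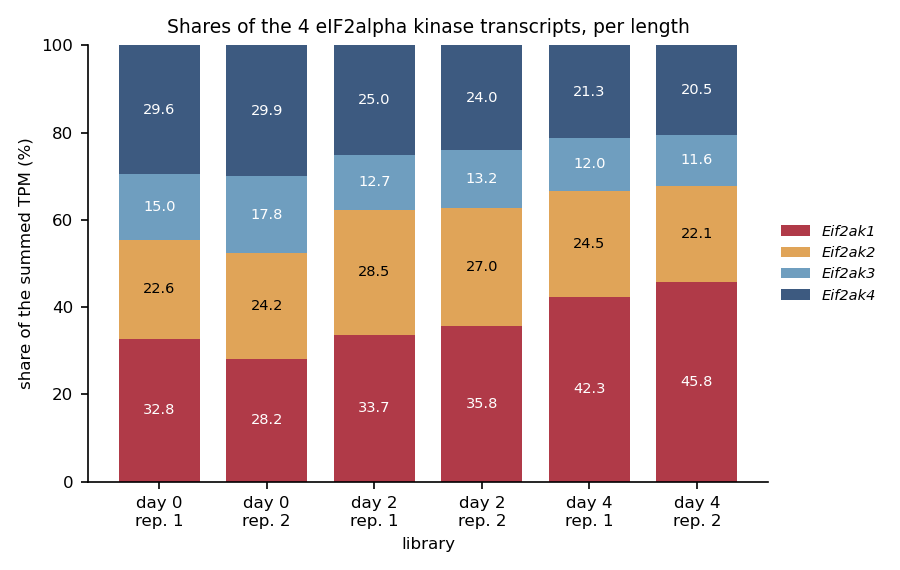
Share of the summed TPM (percent, vertical axis) that each of the 4 eIF2alpha kinase transcripts held in each of the 6 libraries, stacked to 100. The Eif2ak1 segment covers 32.8% and 28.2% at day 0 and 42.3% and 45.8% at day 4.

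The eIF2alpha phosphatase is directed to its substrate by either of a pair of regulatory subunits. Ppp1r15a (NM_008654, chr7:45522917-45526268, minus strand) encodes GADD34, the subunit induced by stress. Its level was 39.3 and 45.5 CPM at day 0, 50.3 and 56.6 at day 2 and 91.6 and 89.3 at day 4. The day 4 libraries were far above the other 4, and no days overlapped. It rose by 0.34 (SE 0.11, adjusted p 0.0239) in log2 in the first step and by 0.76 (SE 0.11, adjusted p 0.00102) in the second in edgeR, and by 1.09 (SE 0.11, adjusted p 7.14e-06) over the whole course, a 2.13-fold difference. The first step was not called without the first day 0 library (0.23, adjusted p 0.0716) or the second day 2 library (0.25, adjusted p 0.203), or with only the days compared fitted (0.33, adjusted p 0.0569), and was 0.53 with total counts.

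Ppp1r15b (NM_133819, chr1:133131166-133139800, plus strand) encodes CReP, the constitutive subunit. Its level was 213 and 272 CPM at day 0, 342 and 355 at day 2 and 398 and 478 at day 4. Both libraries of each later day stood above those of the day before. The log2 fold change was 0.53 (SE 0.14, adjusted p 0.00815) by day 2 and 0.85 (SE 0.14, adjusted p 0.000269) by day 4 in edgeR, and the second step, 0.33 (adjusted p 0.105), was not called. Without the second day 2 library the first step was 0.50 with an adjusted p of 0.0639. The second step was called without the first (0.32) or the second (0.33) day 0 library, with no filter (0.32) and with only the days compared (0.32), and was 0.19 (adjusted p 0.525) without the second day 4 library. Gm26616 overlaps it by 640 bases on the opposite strand. In TPM, Ppp1r15a stood at 0.443 and 0.401 of Ppp1r15b at day 0, 0.353 and 0.383 at day 2, and 0.551 and 0.448 at day 4, so Ppp1r15b was the more abundant subunit per length in each library.

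Atf4 (NM_009716, chr15:80255184-80257545, plus strand) encodes the main transcription factor of the response, whose protein output depends on upstream reading frames in its mRNA and was not measured here. Its level was 442 and 629.9 CPM at day 0, 248 and 234 at day 2 and 179 and 128 at day 4. The highest value was that of the second day 0 library, and the days did not overlap. It fell by 1.15 on the log2 scale in the first step (SE 0.19, adjusted p 0.000309), by 0.65 in the second (SE 0.19, adjusted p 0.023) and by 1.80 over the whole course (SE 0.19, adjusted p 7.7e-06) in edgeR. The call for the second step was lost without the first day 2 library (-0.61, adjusted p 0.166), the second day 2 library (-0.69, adjusted p 0.0987) or the second day 4 library (-0.43, adjusted p 0.201). The call over the whole course held without each of the 6 libraries, with values between -2.07 and -1.54.

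Ddit3 (NM_007837, chr10:127290793-127296291, plus strand) encodes CHOP, a factor tied to cell death under lasting stress. Its level was 82.3 and 136 CPM at day 0, 45.9 and 40.1 at day 2 and 44.1 and 27.7 at day 4. Both day 0 libraries were well above the other 4, and the day 2 and day 4 libraries overlapped. Its log2 fold change was -1.34 (SE 0.24, adjusted p 0.000559) in the first step, -0.26 (SE 0.24, adjusted p 0.43) in the second, which was not called, and -1.60 (SE 0.24, adjusted p 0.000109) over the whole course in edgeR. Without the second day 4 library the second step was 0.035. Mars1, the methionyl-tRNA synthetase gene, overlaps Ddit3 by 68 bases on the opposite strand and fell too, by 1.07 in log2 by day 2 and by 1.12 by day 4, at 115 and 117 CPM at day 0, 56.2 and 54.7 at day 2 and 53.0 and 54.0 at day 4.

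Atf5 (NR_033136, chr7:44812256-44816658, minus strand) encodes a factor close to ATF4 that is linked to mitochondrial stress. The NR record is a non-coding transcript of the gene, taken because its total of 11965 counts was above the 11812 of the coding NM_030693. Its level was 38.4 and 31.2 CPM at day 0, 56.5 and 63.0 at day 2 and 62.4 and 25.1 at day 4. The day 2 libraries were above both day 0 libraries, while at day 4 the first library matched day 2 and the second was the lowest of the 6. The first step was called in edgeR, at 0.78 (SE 0.30, adjusted p 0.0421) in log2, and was not called without the second day 0 library (0.63), the first day 2 library (0.86) or the second day 2 library (0.70), or by DESeq2 (0.75, adjusted p 0.203). The second step, -0.45 (SE 0.30, adjusted p 0.276), and the whole course, 0.33 (SE 0.30, adjusted p 0.348), were not called, and with no filter both were (-0.46, adjusted p 0.00258, and 0.33, adjusted p 0.0203). Leaving out a day 4 library turned the result: without the first, Atf5 was lower at day 4 than at day 2 (-1.25, adjusted p 0.00161) and than at day 0 (-0.47, adjusted p 0.0368), and without the second it was higher than at day 0 (0.84, adjusted p 0.00117) and at 0.059 against day 2, with no call. Il4i1 and Nup62 each overlap Atf5 by 82 bases on the opposite strand, and Nup62 was at 155 and 140.4 CPM at day 0, 98.7 and 96.7 at day 2 and 70.0 and 68.9 at day 4.

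Asns and Trib3 are targets of ATF4, which pairs with a C/EBP partner on a composite element. The core of that element, TGATGNAAN, was searched on both strands in RefSeq promoter windows that run from 250 bases before to 50 after each annotated start, 300 bases in all. It occurred in 3.95% of 32851 windows of all genes and in 2 of the 11 windows of the 9 genes that had an entry, those of Asns and Trib3. Ppp1r15b had no entry. Atf4 and Ddit3, which also fell, had windows without a match. The stretches of Asns and Trib3 are shown because both genes fell and only their windows among the 11 held the match, marked by capitals. They are from the minus strand of GRCm38.p6, chr6:7693180-7693309 for Asns and chr2:152344031-152344160 for Trib3, and with the first transcribed base counted as 1 the capitals begin at -23 and at 14.
Asns: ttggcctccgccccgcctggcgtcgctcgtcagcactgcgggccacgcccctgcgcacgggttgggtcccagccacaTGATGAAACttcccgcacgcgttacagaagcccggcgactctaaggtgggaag
Trib3: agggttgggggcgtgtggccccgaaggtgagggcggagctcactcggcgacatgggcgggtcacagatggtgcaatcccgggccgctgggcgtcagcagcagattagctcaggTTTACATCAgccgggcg
A match is a description of these letters and not a binding site, and none of the libraries measured binding.

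Trib3 (NM_175093, chr2:152337425-152344060, minus strand) encodes a pseudokinase that feeds back on ATF4. Its level was 208 and 182 CPM at day 0, 83.6 and 78.3 at day 2 and 40.6 and 16.7 at day 4. Each later day lay below the one before with no overlap, and the second day 4 library was the lowest by a wide margin. Trib3 changed by -1.27 (SE 0.28, adjusted p 0.00256) in log2 in the first step, -1.50 (SE 0.29, adjusted p 0.00362) in the second and -2.77 (SE 0.30, adjusted p 9.6e-06) over the whole course in edgeR, the lowest value of the 10 genes in the last 2 of these. Without the first day 4 library the last 2 values were -2.28 and -3.54, and without the second they were -1.0 and -2.27, with the call kept each time.

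Asns (NM_012055, chr6:7675165-7693209, minus strand) encodes asparagine synthetase. Its level was 447 and 371 CPM at day 0, 403 and 375 at day 2 and 249 and 203 at day 4. The day 0 and day 2 libraries overlapped, and both day 4 libraries were below all 4 others. The first step was -0.071 (SE 0.14, adjusted p 0.672) in log2 and was not called, the second was -0.78 (SE 0.14, adjusted p 0.00238) and the whole course -0.85 (SE 0.14, adjusted p 0.000213) in edgeR. Without the first day 2 library the adjusted p of the second step was 0.0502, with a value of -0.73.

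The difference between the steps was tested directly, as the second step minus the first. It was called for 1 of the 10 genes, Asns, against 30% of all genes. For Asns it was -0.71 (SE 0.24, adjusted p 0.0433) in edgeR, a fall that came after day 2. The call was lost with relative log expression factors (-0.67, adjusted p 0.0528) and without the first day 2 library (-0.61), the second day 2 library (-0.82) or the second day 4 library (-0.58). For Ddit3 and Atf5 the differences were 1.08 (adjusted p 0.0728) and -1.23 (adjusted p 0.0907), and for Trib3 and Eif2ak1 they were -0.24 (adjusted p 0.743) and -0.17 (adjusted p 0.566). That of Trib3 was 0.27 without the second day 4 library and -0.51 with total counts. That of Eif2ak1 was -0.30 without the first day 0 library, -0.047 without the second and -0.45 with total counts. Calls were gained without the first day 0 library for Atf4 (0.73), Atf5 (-1.40), Ddit3 (1.39) and Ppp1r15a (0.52), without the first day 4 library for Atf5 (-2.03) and Trib3 (-1.01), and without the second day 4 library for Ddit3 (1.38). With total counts Eif2ak4 (-0.56) and Atf5 (-1.50) were called too, and with no filter Atf5 (-1.25) and Ddit3 (1.06). Other left-out libraries gave differences of smaller size. Without the second day 0 library Atf4 was at 0.23 and Ddit3 at 0.68. Ddit3 was at 0.70 without the first day 4 library, and Atf5 at -0.72 without the second. Ppp1r15a was at 0.25 without the first day 2 library.

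**Figure D3:**
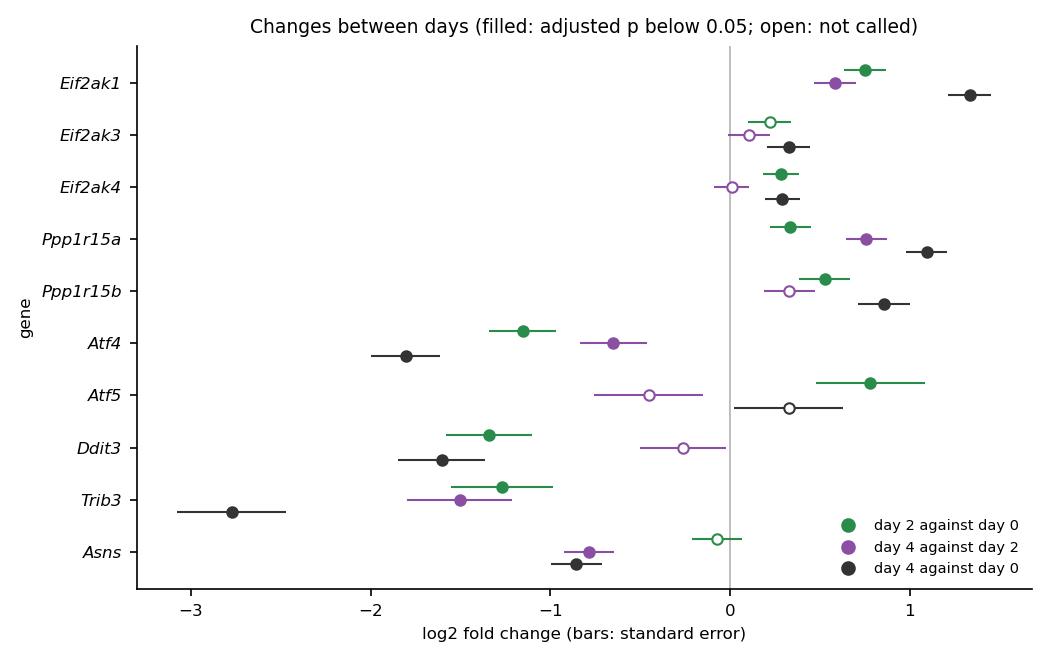
Log2 fold change of the 10 genes (horizontal axis; bars, standard error) for day 2 against day 0, day 4 against day 2 and day 4 against day 0, filled where the adjusted p was below 0.05. Eif2ak1 and Ppp1r15a lie to the right of 0 in each comparison, and Atf4 and Trib3 to the left.

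In TPM at day 0, Atf4 was the highest of the 10 genes at 1012 ± 228 (SD, n = 2), followed by Asns at 669 ± 105, Ddit3 at 399 ± 129 and Trib3 at 315 ± 37.7. Ppp1r15b came next at 141 ± 21 TPM, then Atf5 at 62.8 ± 10.6 and Ppp1r15a at 59.3 ± 4.70. The kinases were the lowest, with Eif2ak1 at 35.6 ± 5.08, Eif2ak4 at 34.6 ± 0.941 and Eif2ak3 at 19.1 ± 1.59 TPM. In this order, 3 pairs of neighbours overlapped between libraries: Ddit3 with Trib3, Atf5 with Ppp1r15a, and Eif2ak1 with Eif2ak4. At day 2 Asns led at 754 ± 43.6 TPM, with Atf4 at 541 ± 24.7. By day 4 Asns stood at 387 ± 62.8, Atf4 at 305 ± 77.8 and Ppp1r15b at 267 ± 28.8 TPM, and each overlapped its neighbour between libraries. Ddit3 (138 ± 47.5 TPM) overlapped Ppp1r15a (132 ± 5.08), and Atf5 (82.8 ± 51.2) overlapped both Eif2ak1 (93.3 ± 7.76) and Trib3 (48.6 ± 29.4). Eif2ak4 (44.3 ± 0.0537 TPM) lay within the range of Trib3, and Eif2ak3 (25 ± 0.190) remained last. Between day 0 and day 4 Trib3 moved down this order and Eif2ak1 moved up.

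Ratios within a library show how unevenly the targets moved with Atf4. The TPM ratio of Asns to Atf4 was 0.873 and 0.507 at day 0, 1.41 and 1.38 at day 2, and 1.20 and 1.37 at day 4. It was below 1 in both day 0 libraries and above 1 in the other 4. For Trib3 the ratio to Atf4 was 0.402 and 0.246 at day 0, 0.288 and 0.285 at day 2, and 0.193 and 0.111 at day 4, where both values were the lowest. For Atf5 it was 0.0826 and 0.0471 at day 0, 0.217 and 0.256 at day 2, and 0.331 and 0.187 at day 4, lowest at day 0. For Ddit3 it was 0.361 and 0.417, 0.36 and 0.332, and 0.478 and 0.419 on the 3 days, highest at day 4 and lowest at day 2 by small margins.

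The genes whose 6 values ran closest to those of Eif2ak1 were Degs1, Otud5, Zswim6, Rnf167 and Tinagl1, with a root mean square distance of 0.031 to 0.051 in centred log2 CPM over the 6 libraries, out of 10453 candidates. Degs1, the closest, was at 34.4 and 28.8 CPM at day 0, 51.2 and 53.5 at day 2 and 72.9 and 80.1 at day 4. Those closest to Atf4 were Sap30, Snhg15, Mcrip2, Fkbp3 and Utp14a, at distances of 0.080 to 0.10. Sap30 was at 12.8 and 16.6 CPM at day 0, 6.66 and 6.63 at day 2 and 4.88 and 3.96 at day 4, and like Atf4 it was highest in the second day 0 library and lowest in the second day 4 library. Likeness over 6 libraries of 1 time course says nothing of shared function or control.

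The wider pathway was followed through 110 further genes in 10 lists, of which 107 were tested. The lists were chosen with earlier results of these data known. Their counts describe the lists and are no independent test of a fall across the pathway. Vldlr, Fgf21 and Grb10 were not tested for want of counts. Over the whole course 20 of the 107 rose and 80 fell, with a median log2 fold change of -1.06. From day 0 to day 2, 16 rose and 74 fell (median -0.71), and from day 2 to day 4, 11 rose and 41 fell (median -0.20). Over all genes tested the shares called higher and lower were 35.5% and 36.4% for the whole course, 31% and 31.5% for the first step, and 14% and 16.2% for the second, and the counts of each list below stand against these. The total for the second step, 52, was smaller without the first day 2, the second day 2 or the second day 4 library. Fewer of all transcripts were then called for that step, and more with either day 0 library left out. For the first step too, fewer of all transcripts were called with either day 2 library left out. The counts of lists below with a library left out stand beside these general shifts. With total counts as the scale, 20 rose and 78 fell over the whole course, with a median of -0.95.

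**Figure D4:**
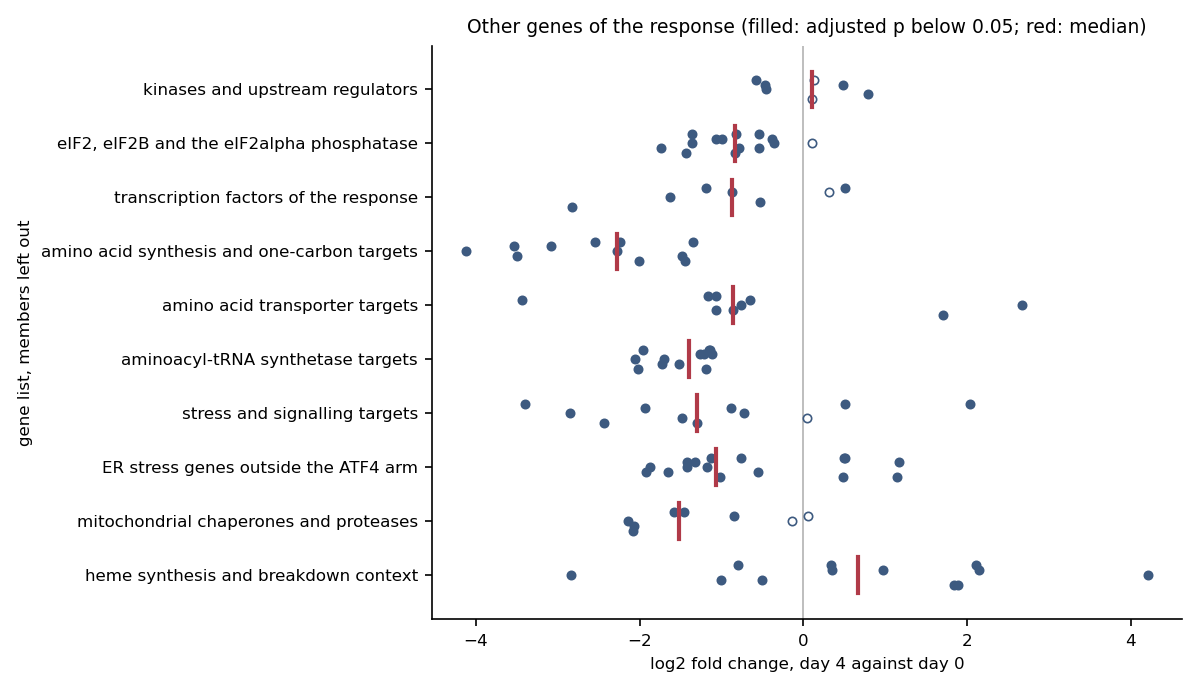
Log2 fold change of each tested gene, day 4 against day 0 (horizontal axis), in the 10 lists with the 10 genes left out; filled points had an adjusted p below 0.05 and red bars are list medians. Medians run from -2.27 for amino acid synthesis to 0.67 for heme synthesis and breakdown.

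Among 7 further kinases and upstream regulators, 2 rose and 3 fell over the whole course, near the shares over all genes. Their median log2 fold change was 0.11, between 0.0057 and 0.11 with a library left out and 0.22 with total counts. Eif2ak2 had the largest rise. Abcf1, an ATP-binding protein linked to translation initiation, had the largest fall, and was at 213 and 279 CPM at day 0, 153 and 156 at day 2 and 165 and 165 at day 4 (-0.57 over the whole course, adjusted p 0.00235, edgeR). Both its day 0 libraries were above the other 4. In the first step 2 rose and 2 fell (median -0.22; -0.13 without the second day 0 library and -0.022 with total counts), and 2 in all were called without the second day 2 library. The second step had 0 calls in edgeR, with 1 of the 7 at an unadjusted p below 0.05, 1 called by DESeq2 and 1 by edgeR with either day 0 library left out.

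Of 14 genes for the subunits of eIF2, its exchange factor eIF2B, the catalytic phosphatase subunits and 3 related initiation and assembly factors, 13 fell over the whole course and 1 was not called, with a median of -0.83. Eif2s1, which encodes the phosphorylated alpha subunit itself, had the largest fall and was at 146 and 154 CPM at day 0, 77.0 and 63.4 at day 2 and 47.1 and 43.1 at day 4. Each day was below the one before, at -1.10 in log2 by day 2 and -1.73 by day 4 (adjusted p 3.93e-07, edgeR). In the first step 12 fell (median -0.64), 7 without the second day 2 library and, with total counts, 8 fell and 1 rose. Between day 2 and day 4, 4 fell; edgeR called 0 without the first day 2 library (3 at an unadjusted p below 0.05), 1 without the second day 4 library and 7 with either day 0 library left out.

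Of 7 further transcription factors, 1 rose and 5 fell over the whole course (median -0.86). The rise was that of Nfe2l2, which encodes the oxidative stress factor NRF2 and was at 34.6 and 34.2 CPM at day 0, 33.9 and 33.8 at day 2 and 48.3 and 49.5 at day 4. Its day 4 libraries stood above the other 4, which lay close together, and the change was 0.51 (adjusted p 0.00111, edgeR). Jdp2, a repressor of the AP-1 family, had the largest fall and was at 31.1 and 25.6 CPM at day 0, 8.57 and 8.59 at day 2 and 4.85 and 3.20 at day 4 (-2.83, adjusted p 3.22e-07, edgeR). In the first step 5 fell, 3 with either day 2 library left out, and with total counts 3 fell and 1 rose (median -0.47, and -0.27 with total counts). From day 2 to day 4, 1 rose and 1 fell, 1 in all with either day 2 library left out and 4 with either day 0 library left out.

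Of the 10 lists, that of amino acid synthesis had the lowest median, with no test between lists. All 11 genes of amino acid synthesis and one-carbon metabolism other than Asns fell over the whole course, with a median of -2.27. They include Cth, which encodes the enzyme that makes cysteine from cystathionine and was at 51.5 and 57.0 CPM at day 0, 9.77 and 7.75 at day 2 and 3.08 and 3.18 at day 4. Cth changed by -2.63 in log2 by day 2 and -4.11 by day 4 (SE 0.16, adjusted p 1.09e-08, edgeR), the largest fall of the 107 genes over the whole course. In the first step 9 of the 11 fell (median -1.49) and in the second all 11 did (median -1.08). Like Asns, 2 of the 11 had no call in the first step.

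Of 9 amino acid transporter genes, 2 rose and 7 fell over the whole course (median -0.86). Slc7a11, the cystine carrier subunit, was at 43.5 and 42.2 CPM at day 0, 20 and 18.0 at day 2 and 5.98 and 2.08 at day 4. All later libraries were below day 0, and the second day 4 library was lowest. The change was -3.44 over the whole course (adjusted p 3.6e-06, edgeR), -4.36 without the first day 4 library and -2.84 without the second. Its first step, -1.17, was not called without the second day 2 library (adjusted p 0.0545) or by DESeq2 (adjusted p 0.0585). Slc7a3, a carrier of cationic amino acids, was low throughout and had the largest rise, at 0.686 and 0.504 CPM at day 0, 3.88 and 3.28 at day 2 and 3.79 and 3.76 at day 4 (2.67, adjusted p 2.17e-06, edgeR). In the first step 2 rose and 5 fell (median -0.39; -0.25 without the first day 0 library), and with total counts 2 rose and 3 fell (median -0.20). In the second 1 rose and 7 fell, 8 in all, and 2, 3 and 2 were called without the first day 2, the second day 2 and the second day 4 library.

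All 12 aminoacyl-tRNA synthetase genes, whose products load tRNAs with amino acids, fell over the whole course (median -1.40) and in the first step (median -1.06). Nars had the largest fall and was at 481 and 482 CPM at day 0, 218 and 197 at day 2 and 136 and 96.4 at day 4. Each day was below the one before, at -2.05 over the whole course (adjusted p 7.83e-07, edgeR). Later, from day 2 to day 4, 8 of the 12 fell, 4 without the first day 2 library and 5 without the second day 2 or the second day 4 library. The core TGATGNAAN was present, on either strand, in 5 of the 8 synthetase windows in the promoter table (62.5%), in 3 of 9 for transcription factors (33.3%), 2 of 9 for transporters (22.2%), 2 of 11 for amino acid synthesis (18.2%), 1 of 12 for the eIF2 list and 0 of 8 for mitochondrial chaperones, in 17 of 104 windows of all list genes (16.3%) and in 3.95% of all windows. In the other lists the core was in 3 of 17 windows for stress and signalling targets (17.6%) and 1 of 13 for endoplasmic reticulum stress (7.69%). It was in 0 of 13 for heme and 0 of 4 for the further kinases and regulators. In the lists with no match, 6 of 8 mitochondrial chaperone genes, 4 of 12 heme genes and 3 of 7 kinases and regulators fell over the whole course. Any link between the core and a fall was not tested. The matches of 4 synthetases are printed as examples because all 12 genes fell over the whole course. They are shown with 10 bases to each side and the match in capitals. They lie, in GRCm38.p6 from RefSeq, at chr6:55037960-55037988 (plus) for Gars, chr13:49682126-49682154 (plus) for Iars, chr15:11399656-11399684 (minus) for Tars and chr4:129189896-129189924 (plus) for Yars.
Gars: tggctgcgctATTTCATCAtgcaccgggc
Iars: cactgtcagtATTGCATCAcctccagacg
Tars: caggagtcccGTTGCATCAgctggttagc
Yars: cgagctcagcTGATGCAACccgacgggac
Of these, only the Yars letters read in the forward direction, and the others are the reverse complement. Whether ATF4 bound there was not tested.

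Of 11 tested stress and signalling targets other than Trib3, 2 rose and 8 fell over the whole course (median -1.30), and in the first step 2 rose and 9 fell (median -0.83). Gdf15, a secreted stress cytokine, had the largest fall and was at 8.28 and 9.06 CPM at day 0, 1.20 and 1.40 at day 2 and 1.14 and 0.552 at day 4 (-3.39, adjusted p 9.58e-07, edgeR). Bbc3, which encodes the cell death protein PUMA, had the largest rise and was at 5.64 and 4.86 CPM at day 0, 16.1 and 16.1 at day 2 and 21.0 and 21.9 at day 4 (2.03, adjusted p 2.88e-07, edgeR). In both genes day 0 was set apart from all 4 later libraries. For the second step 2 rose and 2 fell, against 1 and 5 with total counts, 2 and 4 in the replicate block, and 2 and 6 with either day 0 library left out.

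Genes listed as the endoplasmic reticulum stress response outside the ATF4 arm split. Whether each lies outside that arm was not tested, and 1 of their 13 promoter windows held the core TGATGNAAN. Over the whole course 5 of 16 rose and 11 fell (median -1.07), and in the first step 3 rose and 11 fell (median -1.12). Sdf2l1, a chaperone cofactor, had the largest fall and was at 134 and 119 CPM at day 0, 34.6 and 40.1 at day 2 and 30.3 and 36.7 at day 4 (-1.92, adjusted p 3.42e-07, edgeR). Ern1, which encodes the sensor IRE1, rose and was at 15.5 and 13.0 CPM at day 0, 20.4 and 23.6 at day 2 and 32.3 and 31.9 at day 4 (1.17, adjusted p 1.36e-05, edgeR). Dnajb9, a cochaperone that binds IRE1, had the largest rise of the first step and was at 4.24 and 3.87 CPM at day 0, 9.05 and 8.49 at day 2 and 8.98 and 8.99 at day 4 (1.11, adjusted p 7.45e-05, edgeR). In each of the 3 genes day 0 was apart from the later days. Between day 2 and day 4, 3 rose and 2 fell (median 0.12; 0.039 with total counts and 0.064 without the second day 4 library). The total called was 2 without the second day 2 or the first day 4 library, and edgeR called 0 without the first day 2 library (4 at an unadjusted p below 0.05) or the second day 4 library (3).

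HRI also relays mitochondrial stress, so mitochondrial chaperones and proteases were followed. Of 8 genes 6 fell over the whole course (median -1.52) and 6 in the first step (median -1.17), with no call for the other 2. Hspa9, the mitochondrial Hsp70, was at 713 and 753 CPM at day 0, 329 and 286 at day 2 and 184 and 148 at day 4 (-2.14, adjusted p 2.88e-07, edgeR). Lonp1, a matrix protease, had the largest fall of the first step and was at 447 and 470.2 CPM at day 0, 157 and 163 at day 2 and 159 and 148 at day 4 (-1.52, adjusted p 1.38e-06, edgeR). Hspa9 went down at each step, whereas the day 2 and day 4 libraries of Lonp1 overlapped. In the second step 4 fell, and 2 without the first day 2 or the second day 4 library.

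Heme itself is the ligand that holds HRI inactive, and genes that make it or break it down were followed along with 2 carriers. Of these 12, 8 rose and 4 fell over the whole course (median 0.67), against 7 and 4 in DESeq2. Fewer rose with any single library left out. In the first step 7 rose and 3 fell (median 0.53), against 7 and 1 with total counts, 6 and 4 in DESeq2, and 6 and 1 with either day 2 library left out. In the second 4 rose and 2 fell (median 0.28), 3 in all without the first day 2 library. Alas2, which encodes the erythroid enzyme of the first step of heme synthesis, was at 88.0 and 64.8 CPM at day 0, 280 and 325 at day 2 and 1323 and 1510 at day 4. It climbed at each step without overlap, by 4.21 in log2 (SE 0.18, adjusted p 1.89e-08, edgeR). Hmox1, which encodes the heme-degrading oxygenase, was at 43.1 and 33.3 CPM at day 0, 5.15 and 5.86 at day 2 and 5.01 and 5.63 at day 4 (-2.84, adjusted p 1.17e-07, edgeR). Its day 0 libraries were far above the 4 later ones. Heme was not measured.

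The day 4 libraries differed from each other in part of the response. Atf5, Trib3 and Ddit3 were lower in the second day 4 library than in the first by more than 0.5 in log2 CPM (differences of -1.31, -1.28 and -0.67), a limit chosen after the values were seen, and Atf4 was at -0.48. That is 3 of the 10 genes, and it was 12 of the 107 other pathway genes (11.2%), beside 4.49% of all genes tested. Among the 12 were Slc7a11 (-1.51), Atf3 (-1.03), Nupr1 (-1.02), Gdf15 (-0.98), Pycr1 (-0.82), Chac1 (-0.77) and Psat1 (-0.67), of which all but Slc7a11 and Gdf15 are named because of this difference. The list medians were -0.43 for amino acid synthesis, -0.42 for the synthetases and -0.29 for the transcription factors, against 0.00 for all genes. Of the synthetases 11 of 12 were lower, beside 49.9% of all genes. Transporters were at -0.22 with 7 of 9 genes lower, and stress and signalling targets at -0.16 with 6 of 11. Mitochondrial chaperones were at -0.0985 with 7 of 8 lower, and the eIF2 list at -0.088 with 12 of 14. The medians for endoplasmic reticulum stress, heme and the kinases were 0.076, 0.032 and 0.020. Asns differed by -0.29 and Eif2ak1 by 0.21. At day 0 and day 2, 0 of the 10 genes and 0 of the 107 were lower by that much in the second library, beside 4.49% and 2.06% of all genes. At day 2 also 11 of the 12 synthetase genes were lower in the second library, with a median of -0.062, beside 47.5% of all genes. At day 0, Ddit3 and Atf4 were higher in the second library, by 0.72 and 0.51, as were 4 of the 107 by more than 0.5, beside 9.06% of all genes. These 4, Psph (0.64), Cdkn1a (0.64), Xbp1 (0.57) and Ddit4 (0.53), are named because of this difference. No gene of the 10 or the 107 was higher by that much at day 2 or day 4, beside 2.63% and 3.89% of all genes. What set the day 4 libraries apart was not tested.

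**Figure D5:**
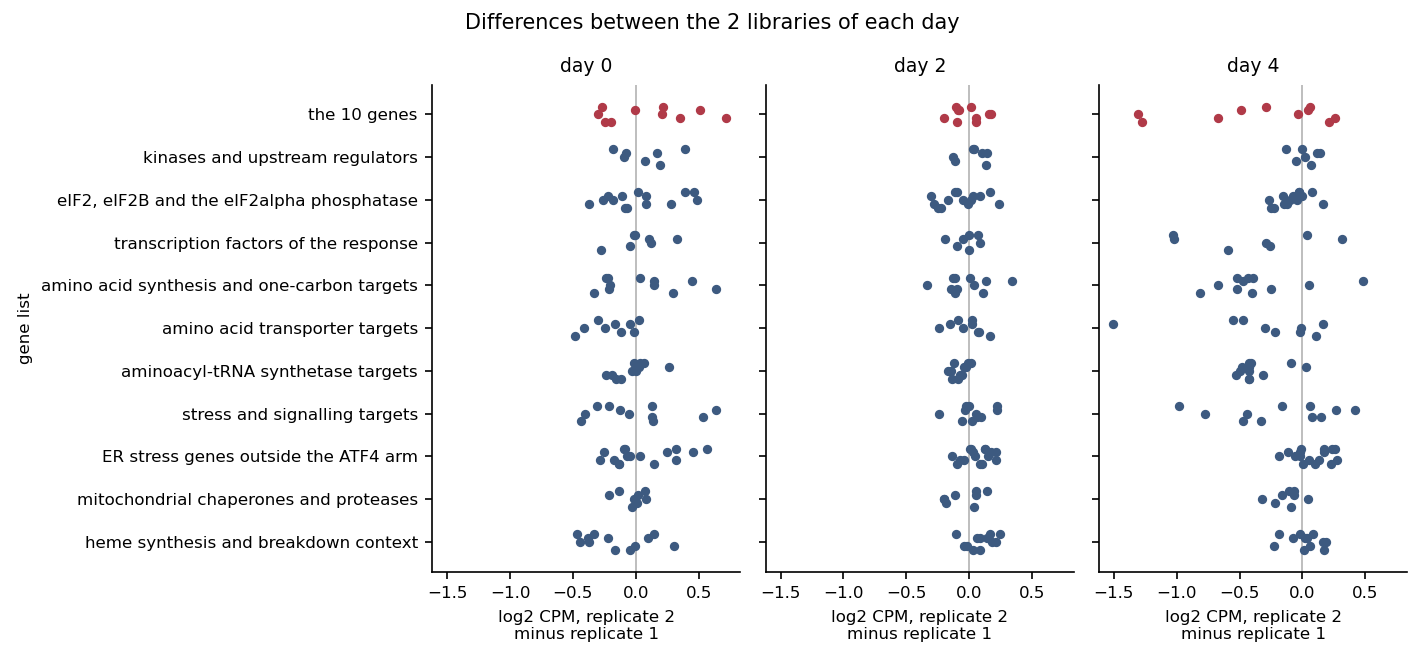
Difference between the libraries of a day in log2 CPM, replicate 2 minus replicate 1 (horizontal axis), for the 10 genes in red and the other list genes in blue, with a panel for each day. At day 4 Atf5 and Trib3 lie at -1.31 and -1.28, and most synthetase and amino acid synthesis genes lie to the left of 0.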

How the data were processed

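Read counts per RefSeq transcript in 6 libraries were deposited by the authors, who trimmed reads with cutadapt and aligned them to mm10 with TopHat; HTSeq and DESeq2 are named in the submitters' notes without versions. Counts on no feature, 50.5% to 58.4% of the sum of these and the counts on transcripts, were left out. The matches of 1 synthetase are not reported here. Symbols came from RefSeq (32199 of 32654 transcripts) and GENCODE (187), and lengths (31824) from GENCODE. Testing used edgeR 4.0.16 in R 4.3.3, with TMM factors (0.921 to 1.07), filterByExpr by day (18351 transcripts kept), 1 quasi-likelihood fit of 6 libraries and Benjamini-Hochberg adjustment over all transcripts kept. Standard errors are the size of a log2 change over the root of F. The fit was tested on simulated data. The 10 genes and the lists were chosen with earlier results of these data known. Named beside the 10 genes were Eif2ak2, untested genes and, in each list, the called genes with the largest rise and fall for day 4 and day 2 against day 0, and the 5 genes most like Eif2ak1 and Atf4 (average log2 CPM of at least 1). Outside this rule are marker genes, genes that overlap the 10, synthetases with printed matches and genes named for a replicate difference after their values were seen. Alternatives were DESeq2 1.42.0, relative log expression factors, total counts, no globin transcripts, no filter, only the days compared and a replicate block. Others were a log2 fold change of at least 1, 1 transcript per gene, and leaving out each library. For Eif2ak4, Atf4, Atf5 and Ddit3 the transcript with the second highest mean count was used too. A set of TPM over all transcripts with a length was added after seeing the data. With 2 libraries per day there was little precision on the spread within a day.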

Additional observations from a re-analysis of the deposited data

Results flagged for a closer look

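For 2 genes, Asns among the 10 and Eif2ak2 beside them, the step from day 2 to day 4 differed from the step from day 0 to day 2 in a test of the difference itself in edgeR, against 30% of all genes. For Asns the second step minus the first was -0.71 in log2 (adjusted p 0.0433), since its fall came after day 2. It kept its direction under the 10 alternatives run for it, with adjusted p between 0.00233 and 0.313. For Eif2ak2 it was -0.82 (adjusted p 0.00636), since its rise was over by day 2, and the call was lost without the first (-0.72, adjusted p 0.133) or the second (-0.94, adjusted p 0.0585) day 2 library. Why the steps differed was not tested.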

How the results depend on the processing

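Over the log2 fold changes named and their alternatives, 1180 results kept their direction and side of the threshold. Another 29 were no longer called, 10 became called and 11 changed sign. Part of this tally was nearly fixed in advance. The transcripts with the second highest mean count held almost the same counts (for Atf4 83295 against 83378). Leaving out globin transcripts hardly moved the medians of all transcripts. Of the differences between steps, which are not in this tally, only that of Trib3 changed sign (0.27 without the second day 4 library). With total counts as the scale, Asns in the first step was 0.13, Eif2ak4 in the second -0.076 and Nfe2l2 in the first 0.17, none called. Leaving out single libraries turned the sign of Asns in the first step (-0.21 to 0.070; positive without the first day 0 library), of Eif2ak4 (-0.038 to 0.049; negative without the second day 2 or, at -0.018, the second day 4 library), Eif2ak2 (-0.072 to 0.038; positive without the first day 2 or, at 0.0061, the second day 4 library), Atf5 (-1.25 to 0.059) and Ddit3 (-0.64 to 0.035) in the second, the last 2 positive without the second day 4 library, and of Atf5 over the whole course (-0.47 to 0.84; negative without the first day 4 library). Leaving out each library gave 4 to 8, 2 to 6 and 8 to 9 of the 10 genes called for day 2 against day 0, day 4 against day 2 and day 4 against day 0, and 73 to 96, 23 to 67 and 95 to 99 of the other pathway genes. Transcripts called ranged from 8632 to 12354, 1410 to 8225 and 11587 to 13815 (11639, 5684 and 13268 in full). A lone library of a day was assumed to vary like the other days. The spread between the libraries of a day was not alike, with a chi-square per degree of freedom of 58.92 at day 0, 10.48 at day 2 and 16.42 at day 4. With 1 transcript per gene fewer were tested, and 7684 and 3669 transcripts were called for the first and second steps. A log2 fold change of at least 1 left 4209, 1082 and 6450 transcripts, 3, 1 and 5 of the 10 genes, and 48 and 12 other pathway genes for the steps. TPM over all transcripts with a length, added after seeing the data, spreads the same sum over more transcripts and gave 24.4 and 66.5 for Eif2ak1 and 693 and 217 for Atf4 at day 0 and day 4. In the replicate block fit 8, 5 and 9 of the 10 genes were called. Library numbers showed little pairing across days (correlation of deviations 0.0316, 0.0451 and 0.0791 over transcripts). Beyond these constructions, the cause was not tested. Fitting only the days compared ended the calls of Eif2ak3 over the whole course (adjusted p 0.0572) and of Eif2ak4 (0.0542) and Ppp1r15a (0.0569) in the first step, and DESeq2 ended that of Atf5 in the first step (0.203). Calls of Eif2ak3, Eif2ak4, Atf5 and, for single steps, Eif2ak1, Ppp1r15a, Ppp1r15b, Atf4 and Asns depended on a library; those over the whole course of Eif2ak1, Ppp1r15a, Ppp1r15b, Atf4, Ddit3, Trib3 and Asns did not.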
